A study of Mus musculus with 18 samples.

Results

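RNA was compared between mouse erythroid cells depleted of the RNA-binding protein PCBP2 and control cells after 2 days of erythroid differentiation. The poly(C)-binding proteins PCBP1 and PCBP2 bind C-rich stretches of RNA through KH domains. They act in splicing, mRNA stability and translation, and they also carry iron to iron-dependent enzymes. In red cell precursors they are best known for binding the alpha-globin mRNA, and maturing erythroblasts change both their transcription and their splicing widely as they divide for the last times and lose the nucleus.

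The comparison covers 6 of the 18 libraries of the study: 3 Day 2 PCBP2 knockdown libraries (hairpins SH1, SH3 and SH4) and 3 Day 2 control libraries (LUC-1, a hairpin against luciferase, with SCR-1 and SCR-2, of scrambled sequence). The members were chosen by their titles alone. All groups were fetal liver progenitors of CD-1 mice at E14.5, enriched with a hematopoietic progenitor kit to which a CD71 antibody was added, infected with MSCV-PIG retroviruses (puromycin-IRES-GFP) carrying the short hairpin RNAs, and expanded for 48 hours with dexamethasone, erythropoietin and stem cell factor (Day 0). Day 2 cells then spent 2 days with erythropoietin in differentiation medium. Hairpins against Pcbp1 gave the 3 Day 2 PCBP1 knockdown libraries, and the Day 0 control and PCBP2 knockdown groups held 3 libraries each. The replicates of a knockdown group carry different hairpin numbers. The labels do not say whether SCR-1 and SCR-2 are different hairpins, or whether the replicates of a group came from separate cultures, animals or litters. The p-values therefore cover only the differences among these libraries, which may be technical.

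The 6 libraries held between 27033440 and 38006881 estimated reads. Globin transcripts took between 27.6% and 33.5% of the reads in the controls and between 25.9% and 28.6% in the PCBP2 knockdown, as in cells of the erythroid lineage. On the first principal component of the 9 Day 2 libraries (27.7% of the variance), the LUC-1 control stood apart at -54.1, against -2.3 and -12.8 for SCR-1 and SCR-2. Marker genes of most other cell types were low or overlapped between the groups. The summed level of 19 hepatocyte markers was 1.17 to 2.52 CPM (normalised read counts scaled to a common library size) in the controls and 1.51 to 2.09 in the knockdown, with Apoc3, Ttr, Serpina1a and Rbp4 at 0. That of 22 macrophage and monocyte markers was 154 to 192 CPM against 164 to 217, that of 17 megakaryocyte and platelet markers 649 to 806 against 688 to 801, that of 17 granulocyte markers 605 to 863 against 805 to 849, and that of 20 mast cell, basophil and eosinophil markers 59.6 to 73.2 against 52.3 to 66.8, with Tpsb2 at 0. The sums of 19 endothelial and stromal markers (29.3 to 29.8 against 32.2 to 34.0 CPM, with Emcn, Col3a1, Dcn and Cxcl12 at 0) and of 24 lymphoid markers (11.4 to 15.5 against 19.0 to 20.5 CPM, with Cd3e, Rag1, Trbc1, Vpreb1 and Igll1 among those at 0) did not overlap between the groups, and their part in the results was not tested.

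Pcbp2 itself (ENSMUSG00000056851, GRCm38 chr15:102470539-102500061, plus strand) had 134, 133 and 148 CPM in the SCR-1, SCR-2 and LUC-1 controls, in this order, while hairpins SH1, SH3 and SH4 left 23.6, 22.2 and 28.9 CPM. The groups lay far apart, and the knockdown left 18.03% of the control mean (24.9 ± 3.5 against 138 ± 8.4 CPM, mean ± SD, n = 3). The log2 fold change was -2.47 with a standard error of 0.14 (edgeR adjusted p = 4.31e-07). In the PCBP1 knockdown, Pcbp2 was at 108, 127 and 115 CPM.

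The paralogs were not called. Pcbp1 had 141, 166 and 169 CPM without and 144, 128 and 150 CPM with PCBP2 knockdown, and the groups overlapped (log2 -0.17, edgeR adjusted p = 0.846). Hnrnpk, the gene for their relative hnRNP K, was at 322, 325 and 310 CPM against 339, 351 and 349 CPM (log2 0.12, edgeR adjusted p = 0.659). For Pcbp3 the log2 value was 0.26 (adjusted p = 0.858 by edgeR), and Pcbp4 was too low to be tested.

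Few other genes passed the test. A gene is called here at a Benjamini-Hochberg adjusted p under 0.05 in edgeR's quasi-likelihood test, and "rose" and "fell" are kept for called genes. Of 15129 tested genes, 30 were called (0.198%). Of these, 28 fell (0.185%) and 2 rose (0.0132%), and 2032 genes (13.4%) had an unadjusted p under 0.05. The 3 knockdown libraries lay wholly below the 3 controls for 1548 genes (10.2%) and wholly above them for 1461 (9.66%), so separation alone was as common upward as downward. All 30 called genes were separated in this way. Scaling to library totals in place of TMM factors moved the median of all genes from 0.01 to 0.18 on the log2 scale and turned the split into 10 lower and 14 higher.

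Genes of the cell cycle were among those that fell. Cdc25b (chr2:131186949-131198497, plus strand), the phosphatase that activates CDK1 at entry into mitosis, was at 132, 133 and 187 CPM in the controls against 75.01, 72.7 and 66.4 CPM in the knockdown. The knockdown mean was 47.4% of the control mean, and LUC-1 was the highest control (log2 -1.08, SE 0.14, edgeR adjusted p = 0.0165). Apart from Pcbp2, it was the only called gene that kept its call after removal of the GC trend from every library and with an offset for transcript length. It was not called in the 6 libraries alone or without any of the hairpins SH1, SH3 and SH4, and its log2 values over all 15 alternatives ran from -1.17 to -0.89. Fzr1, the CDH1 activator of the anaphase-promoting complex, was at 547, 565 and 773 CPM against 377, 315 and 306 CPM (log2 -0.92, SE 0.16, edgeR adjusted p = 0.0452).

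Of 28 tested erythroid transcription factors on the list, 1 fell. It was Zfpm1, which encodes the GATA1 cofactor FOG-1, at 73.7, 105 and 96.9 CPM in the controls against 51.4, 49.3 and 49.2 CPM in the knockdown (log2 -0.88, SE 0.13, edgeR adjusted p = 0.0306). Genes outside that list fell as well. Cbfa2t3, a corepressor of the SCL/TAL1 complex also known as ETO2, was at 550, 675 and 653 CPM against 404, 355 and 440 CPM (log2 -0.65, SE 0.12, edgeR adjusted p = 0.0452). Trim58, a ubiquitin ligase of late erythroblasts, was at 256, 273 and 309 CPM against 187, 159 and 143 CPM (log2 -0.78, SE 0.13, edgeR adjusted p = 0.04). In each of these genes every knockdown library lay below every control. Blvrb, the NADPH-dependent biliverdin reductase B of red cells, was at 1011, 1125 and 1348 CPM against 739, 596 and 601 CPM (log2 -0.85, SE 0.13, edgeR adjusted p = 0.0306). Atg9a, the membrane protein that seeds autophagosomes, was at 442, 418 and 576 CPM against 312, 294 and 263 CPM (log2 -0.72, SE 0.14, edgeR adjusted p = 0.0489).

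The AP-1 gene Junb showed how far a single control could differ. It was at 178 CPM in SCR-1 but 355 and 357 CPM in SCR-2 and LUC-1, and at 133, 121 and 116 CPM in the knockdown (log2 -1.27, SE 0.21, edgeR adjusted p = 0.04). Signalling and transport genes were also in the group. Slc43a2, an amino acid transporter (log2 -0.95), Pde4a, a cyclic AMP phosphodiesterase (-1.13), Ap2a1, a subunit of the endocytic adaptor AP-2 (-0.94), Vps37b, a subunit of ESCRT-I (-0.99), Scly, selenocysteine lyase (-0.90), Wdtc1 (-0.71), Tmem9 (-0.65), Tmem259 (-0.84), Smim4 (-1.11) and Grifin (-1.23) fell too, with edgeR adjusted p-values from 0.0285 to 0.0489.

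Some calls are uncertain in identity. Rps12, a small-subunit ribosomal protein gene with near-identical copies in the genome, was at 31.5, 125 and 111 CPM in the controls against 0.30, 0 and 0.16 CPM in the knockdown. In the PCBP1 knockdown it was at 35.6, 0.17 and 0.72 CPM, so libraries of the same group differed many-fold. Igflr1 was at 0.83, 0.60 and 1.18 CPM in the controls and at 0 in all 3 knockdown libraries, at least 8.50-fold lower when 3 reads per library are taken as the floor, and it was also at 0 in the PCBP1 knockdown. Rpl14-ps1, a ribosomal protein pseudogene, rose from 14.8, 5.58 and 2.82 CPM to 30.6, 32.5 and 44.1 CPM. The other gene that rose, Prn, was at 0.33, 0.17 and 0 CPM in the controls against 1.71, 1.07 and 2.10 CPM in the knockdown. Gm20605, a predicted gene, was at 7.82, 6.18 and 9.87 CPM against 2.78, 2.77 and 3.28 CPM.

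**Figure D1:**
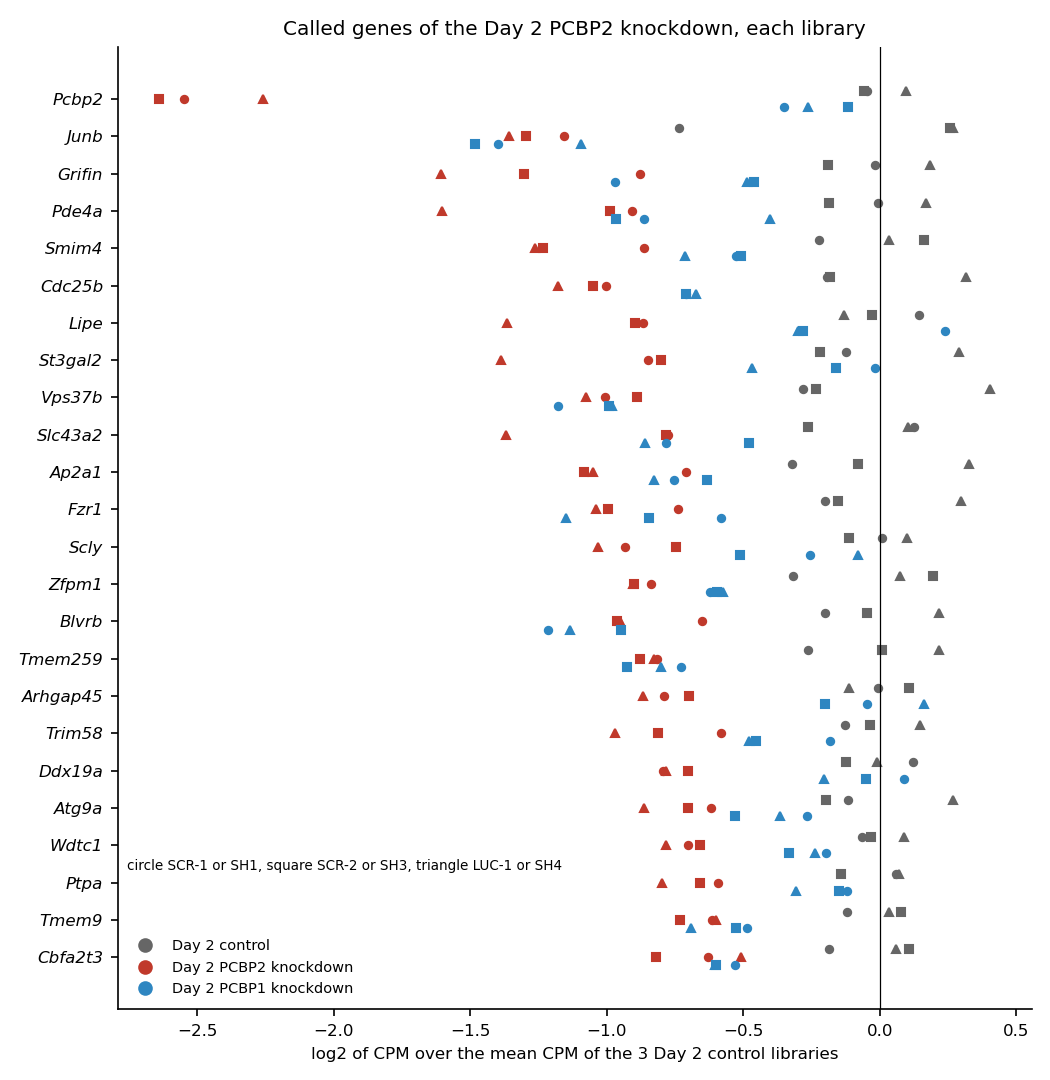
Normalised level of 24 of the 30 called genes in each Day 2 library, as the log2 of its CPM over the mean of the 3 controls (x axis), for control (grey), PCBP2 knockdown (red) and PCBP1 knockdown (blue) libraries; genes left out include Igflr1, Rps12, Rpl14-ps1, Prn and Gm20605, for their low or uncertain counts. All 3 red points lie left of all 3 grey points in every row. For Pcbp2, Arhgap45, Ddx19a, Ptpa, Lipe and St3gal2 the blue points lie apart from the red ones.

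Other erythroid transcription factors had lower values and were not called. Klf1, the erythroid activator EKLF, was at 164, 213 and 279 CPM in the controls against 124, 108 and 134 CPM in the knockdown (log2 -0.84, edgeR adjusted p = 0.0509). Gata1 was at 528, 590 and 634 CPM against 469, 387 and 450 CPM (log2 -0.42, edgeR adjusted p = 0.115), and Zbtb7a, a repressor of embryonic globin genes, stood at -0.74 (edgeR adjusted p = 0.0509). For all 3 the groups were separated, yet none passed.

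Of the 10 tested genes of the globin list, none was called by edgeR, and 4 had an unadjusted p under 0.05, against 13.4% of all tested genes. DESeq2 called 2, Hba-a1 and Hba-a2, and 383 of all 15129 tested genes. Hba-a1 was at 92450, 133700 and 161100 CPM in the controls against 93760, 71490 and 82200 CPM in the knockdown, and the groups overlapped (log2 -0.65, edgeR adjusted p = 0.0896). Its near-identical copy Hba-a2 was at 3709, 3629 and 5049 CPM against 7384, 7616 and 8289 CPM (log2 0.91, edgeR adjusted p = 0.0509). In edgeR, Hba-a2 was called over all 18 libraries and with library totals, Hba-a1 without SCR-1, and both with no expression filter. The copies took opposite signs, and reads that fit both cannot be assigned with certainty. The adult beta-globin genes Hbb-bs and Hbb-bt had log2 values of -0.27 and -0.14 (edgeR adjusted p = 0.245 and 0.587).

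Lists of genes by role were described by their counts and medians, beside all tested genes, of which 49.4% had a value below 0 and whose median was 0.01. Of all 15129 tested genes, 0.198% were called by edgeR, 13.4% had an unadjusted p under 0.05 and DESeq2 called 383. The same background applies to the lists of the next paragraphs. Among 28 erythroid transcription factors, 20 lay below 0, 1 was called (Zfpm1) and the median was -0.23. Among 19 heme synthesis genes, 16 lay below 0, none was called by edgeR (8 had an unadjusted p under 0.05, and DESeq2 called 2) and the median was -0.24, with Slc25a39, a mitochondrial carrier, at -0.50 and Alad, which makes porphobilinogen, at -0.50. Among 30 genes of the red cell membrane and skeleton, 25 lay below 0, none was called by edgeR (12 unadjusted, 4 by DESeq2) and the median was -0.26. Its members Rhd, a blood group antigen, and Dmtn, dematin, were at -0.61 and -0.62, and Slc2a1, the glucose transporter GLUT1, was at -0.65. Against the same controls, the PCBP1 knockdown had medians of -0.19, -0.31 and -0.37 for these lists, in the order above. There 9, 6 and 8 genes were called lower by edgeR, against 622 of all 15129 tested genes. Between the knockdowns (PCBP2 minus PCBP1) the medians were 0.01, 0.08 and 0.07. Both leanings were measured against the same control libraries. A shift in those controls therefore cannot be told apart from a shift in both knockdowns. In RNA from whole cultures, fewer cells at a stage cannot be told apart from less RNA per cell.

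The erythroid medians of the PCBP2 knockdown against control depended on the libraries and the scaling. With LUC-1 left out, the heme synthesis median was -0.12, the membrane median -0.10 and the transcription factor median -0.22. With any other single library left out they ran from -0.26 to -0.13, from -0.34 to -0.22 and from -0.26 to -0.19 in the same order. With the GC trend removed they were -0.17 and -0.22, and the transcription factor median was -0.11. Scaled to library totals they were -0.06, -0.06 and -0.05, against 0.18 for all genes.

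Proliferation genes showed the same leaning by small amounts. Of 44 DNA replication genes 38 lay below 0 (median -0.15, none called by edgeR, 5 unadjusted, 1 by DESeq2), and of 42 genes of mitosis and cytokinesis 38 did (median -0.15, Cdc25b called). The replication median ran from -0.31 without LUC-1 to -0.05 without SCR-1, and both medians turned to 0.02 and 0.01 when scaled to library totals, against 0.18 for all genes. Plk1, the mitotic kinase, stood at -0.51 (edgeR adjusted p = 0.187). Depdc1b, which acts in mitosis, was at 4.68, 3.78 and 4.83 CPM in the controls against 2.70, 2.68 and 2.17 CPM in the knockdown (log2 -0.81, edgeR adjusted p = 0.0795). Glycolysis genes had a median of -0.21, with 16 of 20 below 0 and none called by edgeR (7 unadjusted, 2 by DESeq2).

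The remaining lists differed in direction. Of 26 p53 targets and CDK inhibitors, 18 lay above 0 (median 0.18, none called by edgeR, 11 unadjusted, 1 by DESeq2), with the death receptor Fas at 0.80 and Trp53inp1 at 0.43. Immediate-early and heat-shock genes were split, with a median of 0.11 over 35 genes. In that list Junb fell, Jund, another AP-1 member, was at -0.88 (edgeR adjusted p = 0.055), and Hsph1, a chaperone of the HSP110 family, was at 0.49 (edgeR adjusted p = 0.0766). Terminal maturation and autophagy genes (33, Trim58 called), iron uptake and storage genes (21, Blvrb called) and ribosomal protein genes (79, Rps12 called) had medians of -0.13, -0.04 and -0.03. Interferon response (32), cholesterol synthesis (27), integrated stress response (39), splicing factor (62), mitochondrially encoded (13) and progenitor genes (21) had medians from -0.07 to 0.04 with no member called by edgeR, and between 0 and 11 members had an unadjusted p under 0.05 (DESeq2 called 0 to 4 in each list). Of the 11 tested macrophage and monocyte markers, 10 lay above 0 (median 0.26, none called by edgeR, 1 unadjusted, 0 by DESeq2). Of the 12 tested mast cell, basophil and eosinophil markers, 10 lay below 0 (median -0.28, none called by edgeR, 2 unadjusted, 0 by DESeq2). Txnip, an arrestin-like protein that binds thioredoxin and curbs glucose uptake, was not called and was at 260, 243 and 241 CPM in the controls against 410, 309 and 376 CPM in the knockdown (log2 0.56, edgeR adjusted p = 0.0674).

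**Figure D2:**
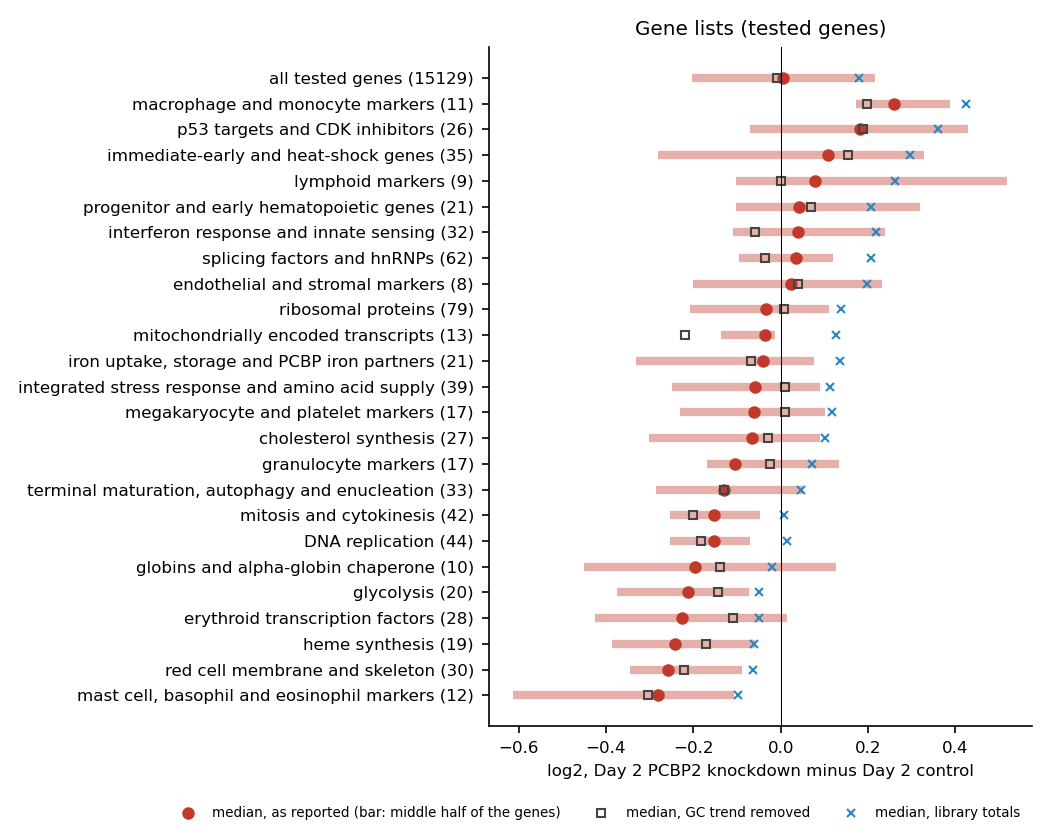
Median log2 value (PCBP2 knockdown minus control, Day 2) of each gene list, with its number of tested genes, as reported (red, with a bar over the middle 50% of genes), after removal of the GC trend (squares) and scaled to library totals (crosses). All tested genes are the top row; red cell membrane, heme synthesis and erythroid transcription factor genes had medians of -0.26, -0.24 and -0.23, and library totals moved every list upward.

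The values moved with the GC content of the transcripts. The genes that fell had a median GC content of 57.2%, against 49.3% for all tested genes, and 21 of the 28 were among the 3026 genes with the highest GC content when all were ranked into 5 equal bins. Over the bins from low to high GC, the median log2 values were 0.12, 0.08, 0.03, -0.05 and -0.22. In the top bin each knockdown library lay below the control mean, with medians of -0.14, -0.18 and -0.13 for SH1, SH3 and SH4, and the PCBP1 knockdown libraries were at -0.20, -0.18 and -0.10. The control SCR-1 was at -0.09. With this trend removed from each library, Pcbp2 and Cdc25b were the only genes called. All 28 log2 values stayed below 0, and their median was -0.76 against -0.94 before. The part of the GC trend in the other 26 falls was not tested further.

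**Figure D3:**
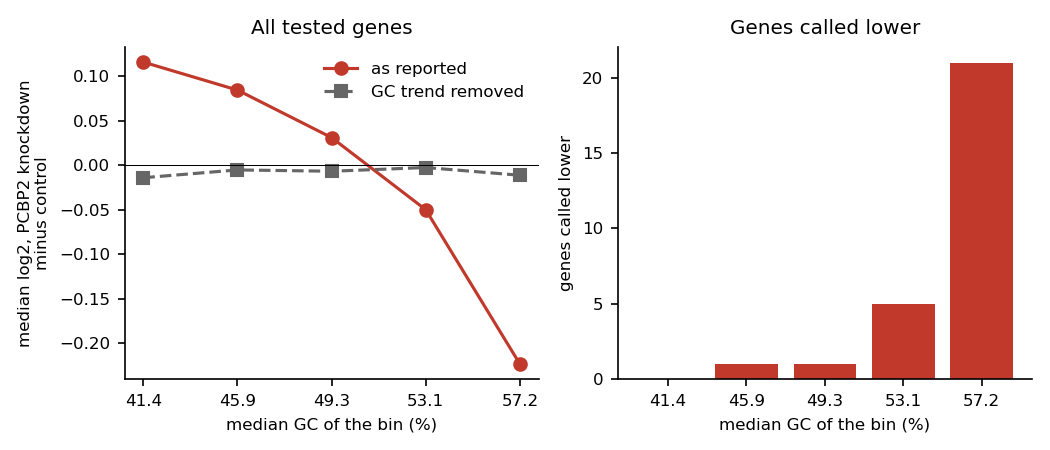
Median log2 value of all tested genes in 5 bins by GC content (left; x axis, median GC of the bin in percent), as reported (red) and with the GC trend removed (grey), and the number of genes called lower in each bin (right). The reported medians run from 0.12 to -0.22, and 21 of the 28 genes called lower are in the last bin.

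Leaving out single libraries changed the number of calls widely. It was 170 without SCR-1, 7 without LUC-1, 2 without SCR-2 and 1 without any of the hairpins SH1, SH3 and SH4. The fit over all 18 libraries, which pools the spread of both days (common dispersion 0.0293 on Day 2 and 0.00749 on Day 0), gave 822, DESeq2 gave 383 and the 6 libraries alone gave 2, Pcbp2 and Rps12. Pcbp2 was called under all 15 alternatives.

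The next question was where PCBP2 depletion differed from PCBP1 depletion on the same day, which the design tests directly. Of 15129 genes, 214 (1.41%) were higher in the PCBP2 than in the PCBP1 knockdown and 187 (1.24%) were lower. The comparisons of each knockdown with control share the control libraries, so their values are given side by side and no overlap is read from them. Blvrb was at 500, 603 and 528 CPM and Junb at 113, 106 and 139 CPM there, both near or below the PCBP2 knockdown values.

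For 7 of the 30 called genes, the difference between the knockdowns was itself called. Beside Pcbp2 and Gm20605 these were 5 genes that lay near the control level in the PCBP1 knockdown. Arhgap45, a GTPase-activating protein of blood cells, was at 172, 186 and 160 CPM in the controls, 99.7, 106 and 94.5 CPM in the PCBP2 knockdown and 167, 150 and 193 CPM in the PCBP1 knockdown. It was lower than control by a log2 value of -0.78 (edgeR adjusted p = 0.0306) and lower than the PCBP1 knockdown by -0.76 (edgeR adjusted p = 0.00762). Ddx19a, an RNA helicase of mRNA export with a close paralog, Ddx19b, was at 58.7, 49.5 and 53.5 CPM, 31.1, 33.2 and 31.4 CPM, and 57.4, 52.1 and 46.7 CPM in the same order, and differed between the knockdowns by -0.71 (edgeR adjusted p = 0.0135). Lipe, hormone-sensitive lipase, was at 18.8, 16.7 and 15.5 CPM, then 9.32, 9.14 and 6.60 CPM, then 20.1, 13.97 and 13.8 CPM (-0.93 between the knockdowns, edgeR adjusted p = 0.0187). In all of these genes the PCBP2 libraries stood below every library of the other groups. St3gal2, a sialyltransferase, and Ptpa, an activator of the phosphatase PP2A, differed between the knockdowns by -0.79 and -0.49 (edgeR adjusted p = 0.0351 and 0.0401), and each difference was called in 8 of 15 alternatives.

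The integrated stress response, in which ATF4 raises genes of amino acid supply, separated the knockdowns. Of its 39 tested genes, 11 were higher in the PCBP2 than in the PCBP1 knockdown, none was lower, and the median was 0.36 against -0.01 for all genes. Between 4 and 18 were called higher under the alternatives, with medians from 0.27 to 0.44, and the count was 4 or 5 whenever 1 PCBP2 hairpin, or PCBP1 hairpin SH1 or SH4, was left out. Atf4 was at 675, 687 and 643 CPM in the controls, 652, 596 and 689 CPM in the PCBP2 knockdown and 458, 513 and 466 CPM in the PCBP1 knockdown (0.43 between the knockdowns, edgeR adjusted p = 0.042), a difference called in 8 of 15 alternatives. Trib3, a target of ATF4, was at 391, 402 and 280 CPM, then 296, 385 and 325 CPM, then 121, 166 and 183 CPM (1.10, edgeR adjusted p = 0.00757). The PCBP2 libraries stayed within or close to the control range for these genes and the PCBP1 libraries lay lower. Atf3, which encodes another stress-induced factor of the family, was at 55.1, 63.4 and 38.6 CPM, then 71.6, 84.5 and 72.4 CPM, then 22.6, 37.9 and 31.5 CPM (1.31, edgeR adjusted p = 0.00563). Chac1, which degrades glutathione, Slc7a5, an amino acid transporter, and Got1, the cytosolic aspartate aminotransferase, were higher by 1.37, 0.51 and 1.26.

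Against control, DNA replication genes lay mostly above 0 in the PCBP1 knockdown (39 of 44, median 0.27, 9 unadjusted, none called by edgeR). In that comparison 3278 of all 15129 genes had an unadjusted p under 0.05, and 9 of 44 is near that share. The replication genes lay mostly below 0 in the PCBP2 knockdown (38 of 44, median -0.15). Between the knockdowns they lay lower with PCBP2 than with PCBP1 depletion, with 41 of 44 below 0 and a median of -0.47. By edgeR 1 was called lower, Tk1, thymidine kinase (-0.64, edgeR adjusted p = 0.0405), and 28 had an unadjusted p under 0.05, against 3117 of all 15129 genes. DESeq2 called 7 lower, the fit over all 18 libraries 22, and edgeR without PCBP1 hairpin SH3 8. Over all tested genes these settings called 483, 1277 and 316 lower. No replication gene was called by edgeR with any other single library left out, where the medians ran from -0.38 to -0.55, and Tk1 kept its call in 9 of 15 alternatives. Apart from the targeted genes, the genes with the smallest p-values of the comparison included on the lower side Ptprh, a receptor tyrosine phosphatase (-2.04), Tspoap1 (-1.25), Pebp1, an inhibitor of RAF kinase (-1.40), and Reps2 (-1.93), and on the higher side Dcbld2 (1.15), A930006K02Rik (1.47) and Got1. Among globins, the embryonic gene Hbb-bh1 was lower (-2.02, edgeR adjusted p = 0.0321) and Hbq1b was higher (0.57, edgeR adjusted p = 0.0154). The Hbb-bh1 difference came with uneven PCBP1 libraries at 46.7, 17.0 and 62.8 CPM, against 13.9, 7.72 and 9.59 CPM in the PCBP2 knockdown and 9.45, 8.81 and 26.3 CPM in the controls, and it was called in 9 of 14 alternatives.

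The third comparison asked whether the effect of PCBP2 depletion changed from Day 0 to Day 2. On Day 0, in the fit over all 18 libraries, 4 of 17500 genes were called (0.0229%): Pcbp2, Cdc25b, Depdc1b and Btbd2. That fit pools the spread of both days (common dispersion 0.0169, against 0.00749 on Day 0 alone). It gave 822 calls for the Day 2 comparison with control. The 30 Day 2 calls came from the fit to the Day 2 libraries, so the 4 and the 30 are not like counts. Scaled over all 18 libraries, Cdc25b had 29.9, 31.5 and 28.5 CPM in Day 0 controls against 16.7, 16.4 and 20.5 CPM in the Day 0 knockdown (log2 -0.75, edgeR adjusted p = 0.021). On that scale the gene reached 225, 225 and 313 CPM in Day 2 controls, against 125, 121 and 110 CPM in the knockdown, so the gene fell on both days around a level that rose with differentiation. Depdc1b was at 15.4, 16.6 and 14.3 CPM against 9.02, 9.79 and 8.79 CPM on Day 0 (-0.75, edgeR adjusted p = 0.0222). Btbd2 was at 7.10, 5.97 and 6.78 CPM against 2.11, 2.33 and 2.55 CPM on Day 0 (-1.51, edgeR adjusted p = 0.000107) and stood at -0.85 on Day 2 (edgeR adjusted p = 0.0798).

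The change of the effect between the days was called for 0 of 17500 genes by edgeR (0.0%), with 1594 at an unadjusted p under 0.05 and 90 called by DESeq2. Of the 28 genes that fell on Day 2, which include Pcbp2, 27 had a negative Day 0 value, against 46.9% of the 17500 genes. All 28 were lower by more on Day 2, the day that chose them. Zfpm1 had a log2 value of -0.14 on Day 0, and its effect differed between the days by -0.76 (edgeR adjusted p = 0.296). Trim58 and Fzr1 were at -0.20 and -0.17 on Day 0, with differences of -0.60 and -0.76 (edgeR adjusted p = 0.41 for both). Between Day 0 and Day 2 in the controls, 20 of the 28 genes rose and 3 fell, against 45.5% of all tested genes rising, and these values share the Day 2 controls with the knockdown comparison.

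Splicing was read from the authors' deposited table, which lists local splicing variations. Each such variation groups the junctions that leave or enter 1 exon, and PSI (percent spliced in) is the share of a junction in that set. The table gives PSI for the pooled control and the pooled PCBP2 knockdown libraries of Day 2, with no depth or replicate error, and a posterior probability that PSI changed by at least 0.20. A variation is called changed here where a junction has a posterior of at least 0.95. In the authors' deposited table, 62 of 86298 variations in 59 genes were changed (0.0718%). The leading junction, the one with the largest expected change, was used more in 29 and less in 33.

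The authors' deposited table gave the largest shift for Metap1, which encodes a methionine aminopeptidase, where a junction went from 17.6% in the controls to 73.4% in the knockdown. In the authors' deposited table Nckap1, a subunit of the WAVE complex that drives actin branching, went from 97.9% to 44.2% for the junction that includes a 94-base exon, while the junction that skips it went from 1.0% to 55.1%. That exon is not a multiple of 3 bases long, and its inclusion junction was at 90.2% in the PCBP1 knockdown and at 91.4% and 93.0% in the Day 0 control and PCBP2 knockdown in the authors' deposited tables. Red cell genes were among the changed ones. In the authors' deposited table the leading junction of Ank1, the ankyrin that anchors the red cell skeleton, went from 62.9% to 11%. That of Fech, ferrochelatase, which inserts iron into heme, went from 79.4% to 37.4% in the authors' deposited table. In the authors' deposited table for the PCBP1 knockdown it was at 64.9%, with an expected change of -7.66 percentage points (posterior 0.104). In the authors' deposited table a junction of Slc2a1 went from 61.2% to 25% and one of Foxo3, a transcription factor of erythroid maturation, from 19.3% to 53.2%.

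The other variations with the largest shifts in the authors' deposited table were in Kctd3 (63.6% to 13.4%), Gltscr1, a BAF complex subunit (38.4% to 84.3%), Zkscan3, a zinc finger repressor of autophagy genes (55.8% to 11.2%), Gm17114 (9.9% to 52.6%), Prkar2b, a regulatory subunit of protein kinase A (72.3% to 30.4%), Xpnpep1, an aminopeptidase (55.0% to 13.0%), and Ttc39a (33.5% to 74.4%). The leading junction was present in the GENCODE M21 annotation for 37 of the 62 variations, and for 21 both leading junctions were. By kind of event, exon skipping alone made up 21% of the changed variations against 20.6% of all. Variations with a retained intron, alone or beside other kinds, made up 11.3% against 19.4%. Variations without a retained intron that were not of a single kind made up 67.7% against 57.2%.

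Runx1, the transcription factor of definitive hematopoiesis, had 2 changed variations. In the authors' deposited table the junction chr16:92613760-92668708, which skips a 192-base coding exon, went from 41.0% in the controls to 72.6% in the knockdown, and the junction that includes the exon went from 44.5% to 14.2%. The skipping junction was at 51.2% in the PCBP1 knockdown in the authors' deposited table, with an expected change of 6.65 percentage points (posterior 0.0228). On Day 0 it went from 34.7% to 65.6% with PCBP2 knockdown, the only one of the 62 leading junctions that was also past the posterior threshold on Day 0. In the other variation, at the 5' side of the gene, the junction chr16:92824980-92825589 went from 46.3% to 86.9% in the authors' deposited table.

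**Figure D4:**
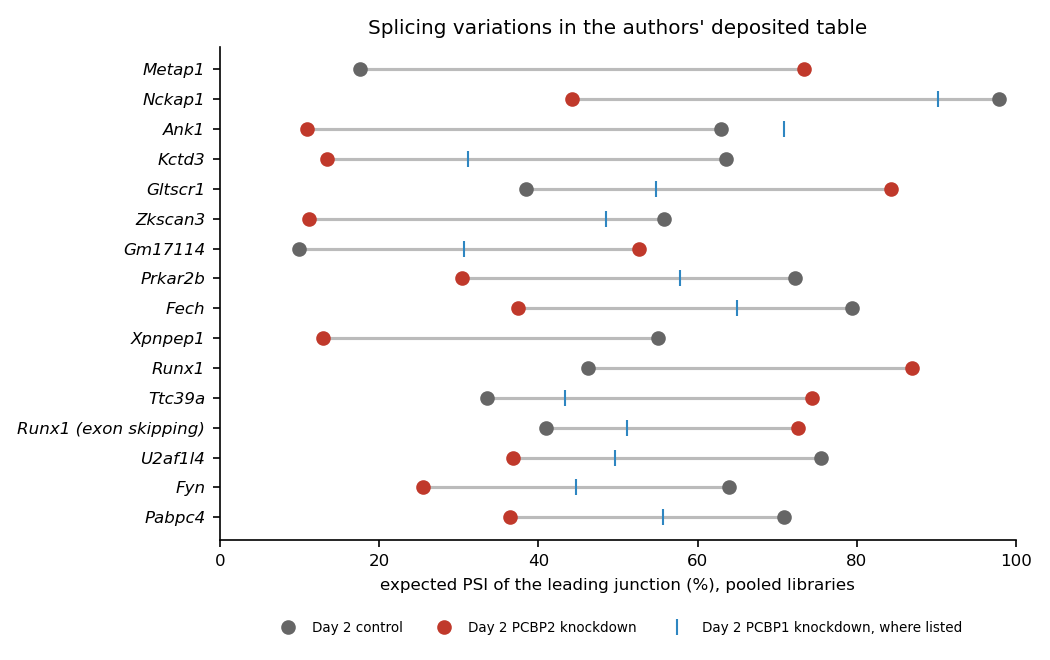
PSI of the leading junction (x axis, percent, pooled libraries) in the authors' deposited tables for Day 2 control (grey), Day 2 PCBP2 knockdown (red) and, where the variation is listed, Day 2 PCBP1 knockdown (blue tick), for the 12 genes with the largest shifts and 4 further variations whose exons are printed or described. Runx1 exon skipping runs from 41.0% to 72.6%, and the blue ticks, except that of Ank1, lie between the grey and the red points. None of the junctions with a blue tick was past the posterior threshold in the PCBP1 knockdown. Their expected changes there ran from -21.4 (Kctd3) to 16.3 (Gm17114) percentage points. That of Ttc39a was -0.94, opposite in sign to the PCBP2 knockdown.

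Of the exons that these junctions use or skip, 5 are shown here from the GENCODE M21 transcripts of GRCm38. They are the coding exon with the largest shift (Nckap1) and the 4 whose isoform shares were separated in every library of the 2 groups. Runs of 3 or more C, the kind of letter run that poly(C)-binding proteins are named for, are in capitals, and each is printed 5′ to 3′ on the strand of the gene.
Nckap1, chr2:80508712-80508805, minus strand, 94 bases, used less: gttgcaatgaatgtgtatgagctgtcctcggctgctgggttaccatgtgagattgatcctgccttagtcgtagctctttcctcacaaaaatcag
U2af1l4, chr7:30564703-30564798, plus strand, 96 bases, used less: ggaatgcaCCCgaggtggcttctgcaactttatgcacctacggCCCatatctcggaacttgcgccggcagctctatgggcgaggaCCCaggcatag
Pabpc4, chr4:123295750-123295836, plus strand, 87 bases, used less: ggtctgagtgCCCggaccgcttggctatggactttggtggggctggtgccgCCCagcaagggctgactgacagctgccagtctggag
Fyn, chr10:39529919-39530074, plus strand, 156 bases, used more: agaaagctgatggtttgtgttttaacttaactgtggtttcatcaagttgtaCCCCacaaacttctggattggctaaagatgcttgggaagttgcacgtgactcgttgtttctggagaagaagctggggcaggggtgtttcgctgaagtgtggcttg
Runx1, chr16:92644154-92644345, minus strand, 192 bases, used less: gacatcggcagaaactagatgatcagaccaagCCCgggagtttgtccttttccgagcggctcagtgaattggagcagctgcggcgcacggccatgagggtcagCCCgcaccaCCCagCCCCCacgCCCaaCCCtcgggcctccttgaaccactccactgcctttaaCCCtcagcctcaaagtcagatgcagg

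The Runx1 exon held 7 runs of 3 or more C, the longest of 5, and 35.9% of its bases were C. Of 9624 internal coding exons of similar length (within 10 bases), 3.97% held as many runs. The Nckap1 exon held none. Annotated coding exons lay between the leading junctions in 17 variations, of which 10 were used less and 7 more in the knockdown, and 7 were a multiple of 3 bases long. A run of 3 or more C was in 12 of the 17 (70.6%), against a mean of 71.6% over exons of similar length, so such runs were no more frequent than in other coding exons. They were in 8 of the 10 exons used less and in 4 of the 7 used more. A match is a description of these letters and not a binding site, and introns were not searched here.

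Isoform shares from the transcript estimates gave the spread that the pooled PSI lacks. The share is the TPM of annotated transcripts with the leading junction over that of transcripts with any junction of the variation, from the same reads as the PSI. It could be formed for 18 of the 62 variations and moved the way of the PSI in 16. In all 18 the share moved by less than the expected PSI change, and often by far less. For Pabpc4 the share moved by -24.9 percentage points against -34.6. For Prkar2b it moved by -4.2 against -43.4, and for Ube3a by -1.0 against -32.4. In 7 of the 16 the 3 knockdown libraries were separated from the 3 controls. This gives p = 0.1 in an exact two-sided permutation test, the smallest that 3 against 3 allows. No variation was separated in the opposite direction. The 18 were chosen as changed from the same reads, which favours this direction, so the counts are not independent support. Separation was not counted over all variations, so no share can be set beside the 7.

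The Runx1 transcripts that skip the exon made up 39.0%, 42.3% and 36.5% in the controls, 51.5%, 53.9% and 57.0% in the PCBP2 knockdown and 35.2%, 37.2% and 37.8% in the PCBP1 knockdown. The PCBP2 libraries stood above all others, by a mean of 14.9 percentage points over control. On Day 0 the shares were 40.8%, 40.3% and 40.5% in the controls and 40.4%, 46.2% and 44.1% in the knockdown, which overlapped. Runx1 mRNA as a whole was at 134, 132 and 197 CPM in Day 2 controls against 118, 113 and 104 CPM in the knockdown (log2 -0.47, edgeR adjusted p = 0.237).

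Pabpc4, a cytoplasmic poly(A)-binding protein, had shares of 46.3%, 61.5% and 74.5% in the controls, 38.7%, 33.8% and 35.2% in the PCBP2 knockdown and 37.7%, 35.2% and 36.3% in the PCBP1 knockdown, so both knockdowns lay below every control. U2af1l4, a relative of the splicing factor U2AF1, had 89.6%, 87.2% and 79.2% in the controls, 59.9%, 76.0% and 50.8% in the PCBP2 knockdown and 44.9%, 71.6% and 62.3% in the PCBP1 knockdown. Here too both knockdowns lay below every control, with wide spread among hairpins. Fyn, a SRC-family kinase, had 25.2%, 22.8% and 22.9% in the controls, 19.7%, 15.0% and 15.2% in the PCBP2 knockdown and 23.3%, 24.9% and 21.3% in the PCBP1 knockdown. Xpnpep1 had 65.6%, 72.0% and 65.2% against 58.6%, 53.8% and 59.6%.

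**Figure D5:**
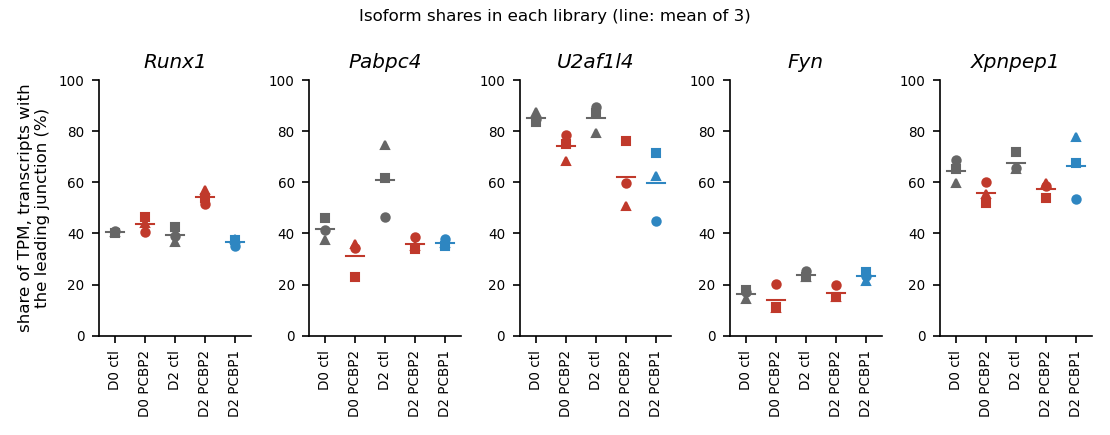
Share of TPM held by transcripts with the leading junction (y axis, percent) in each library for 5 genes, in Day 0 (D0) and Day 2 (D2) control (ctl, grey), PCBP2 knockdown (red) and Day 2 PCBP1 knockdown (blue); lines are means of 3. For Runx1 the Day 2 PCBP2 libraries lie between 51.5% and 57.0%, above every other library, and for Pabpc4 and U2af1l4 the Day 2 libraries of both knockdowns lie below all Day 2 controls.

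The changed variations were set beside the other tables of the authors. The Day 2 PCBP1 table held 168 changed variations of 87825 (0.191%) and 14 of 122133 (0.0115%) were changed in that of the Day 0 PCBP2 knockdown. In the authors' deposited tables, 51 of the 62 leading junctions were also listed for the Day 2 PCBP1 knockdown, where 4 were past the threshold, in Ptpn11, Sp3, Specc1 and Vkorc1l1, and 42 were listed for Day 0, where Runx1 was. The pooled controls are the same in both Day 2 tables. Of the 59 genes with a changed variation, 57 were tested for expression. None was called by edgeR, against 0.198% of all 15129 tested genes, and 0 of 57 is near that share. An unadjusted p under 0.05 was found for 14 of the 57, against 13.4% of all. DESeq2 called 6 of the 57, a higher share than its 383 of all 15129 tested genes. The median of the 57 was -0.05, with Nckap1 at 0.43, Fyn at -0.23, Pabpc4 at -0.15 and U2af1l4 at -0.14.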

How the data were processed

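Per the submitters' processing notes, FastQC 0.11.9, Trim Galore 1.46.0, STAR 2.5.3a, SAMtools 1.9 and Salmon 0.11.3 were used with GRCm38. The authors deposited, per library, an estimated count and a TPM for each of 111706 transcripts. They also deposited splicing tables of PSI, as fractions listed per junction for pooled libraries, per the file headers; the splicing tool is not given in the sources used here. Counts of the 110403 transcripts in GENCODE M21 were summed to 46167 genes and rounded (the rest held 0.284% to 0.351% of reads). edgeR 4.0.16 in R 4.3.3 (TMM, expression filter, quasi-likelihood test) was fitted to the 9 Day 2 libraries (6 residual degrees of freedom), and to all 18 for the change between days and for Day 0. DESeq2 1.42.0 was an alternative. Tests were checked on simulated data. Samples were grouped by title. Hairpin numbers did not pair samples (correlations of deviations -0.045 to 0.046).

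Genes named are the PCBP family, globins, all called genes, up to 4 members of each list and 5 each way against PCBP1 by smallest p, and the 12 genes with the largest PSI shifts, though some are not reported here; Foxo3, Chac1, Atf3, Atf4, Trib3, Slc7a5 and genes beyond these were named after their values were seen. The members and lists were chosen with earlier results of these data known.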

Additional observations from a re-analysis of the deposited data

How the results depend on the processing

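Between PCBP2 knockdown and control, 30 genes were called. The count was 49 with DESeq2 size factors in edgeR, 600 with no expression filter, 2 with the GC trend removed, 2 with the transcript length offset, 383 with DESeq2, 822 over all 18 libraries, 2 in the 6 libraries alone, and 1 to 170 with single libraries left out. Against PCBP1 the 401 calls became 1235 with no filter, 247 with the length offset, 1011 with DESeq2, 2115 over 18 libraries and 57 to 612 with single libraries left out. For the change between days, 0 calls became 169 with no filter, 90 with DESeq2 and 0 to 3 with single libraries left out. Hairpin and construct numbers do not pair the samples; with a replicate block by hairpin the 401 became 738, and with a block by construct the 0 became 1. Library totals gave 24 calls against control and 369 against PCBP1. Changed splicing variations numbered 102 at a posterior of 0.90, 26 at 0.99 and 403 by an expected change of 0.20 alone. Separated isoform shares were 7 by TPM and by reads. Some uncalled values turned sign: Pcbp1 (0.0487 with the GC trend removed, 0.0066 with library totals), Pcbp3 (-0.44 with the length offset, and -0.0836 to 0.601 with single libraries left out), Hbb-bt, Pabpc4 and U2af1l4 (0.041, 0.0371 and 0.0417 with library totals), U2af1l4 (0.0303 with the length offset) and Fyn (-0.4182 to 0.0228 with single libraries left out). No called gene turned sign. Gene values against PCBP1 and list medians were recomputed as alternatives chosen after seeing the data, and no named gene turned sign there. The cause of these differences was not tested. The depth behind PSI is unknown.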

Other observations

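Genes that fell in the Day 2 PCBP2 knockdown lay near each other in the genome more often than tested genes in general. Of the 28, 6 (21.4%) had another of the 28 within 50000 bases, against 0.978% of all tested genes. Among them, Ddx19a (minus strand) and St3gal2 (plus strand) are 2515 bases apart on chromosome 8 with their 3' ends facing. Both were also lower than in the PCBP1 knockdown. Tmem259 and Arhgap45 are 32322 bases apart on chromosome 10. The GC content of these 6 genes ran from 50.5% to 62.8%, and its part in the pattern was not tested.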
